A study of Mus musculus with 6 samples.

Results

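The genes described here are 34 genes of central sugar metabolism, of 45777 genes in the tables. They comprise 33 enzymes of glycolysis, of fructose 2,6-bisphosphate control, of pyruvate fate and of the pentose phosphate pathway, together with *Hif1a*, a transcription factor known for activating many of those enzymes. They were chosen by name and not by a cut on their measured values, although earlier results of these data were known. The estimated counts of all transcripts of a gene were summed in each library. All 34 passed the filter on low counts that left 16123 genes for testing.

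RNA was sequenced in bulk from CD4+ T cells of the spleen of 7-week-old female C57BL/6 mice, separated by the presence (CD4+Lrig1+) or absence (CD4+Lrig1-) of Lrig1 on the cell surface. Lrig1 is a transmembrane protein known for restraining growth factor receptors. The sources name no genetic change or treatment for either group and do not say how many mice went into a library. Analysed here are 2 libraries of each group, 1 pair in each of 2 tables, and these pairs are named set 1 and set 2. The groups, written Lrig1+ and Lrig1- below, can thus be compared within each set.

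Glycolysis breaks glucose down to pyruvate, and the pentose phosphate pathway branches from its first product to supply NADPH and ribose for nucleotides. Resting T cells burn most of their pyruvate in mitochondria, whereas activated and dividing T cells take up more glucose and release lactate. Treg cells, which suppress immune responses, are known for leaning less on glycolysis than effector T cells.

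Depth ranged from 44865070 to 59977951 estimated counts per library. *Lrig1* itself measured 221 and 129 CPM (counts scaled to library size by the TMM method) in the Lrig1+ libraries of set 1 and set 2, against 75.4 and 36.7 in the Lrig1- libraries. The CD4 transcript lay between 924 and 1100 CPM in all 4 libraries. The sum of 6 Treg markers was 2275 and 2021 CPM in Lrig1+ and 230 and 165 in Lrig1-. Of 12 proliferation markers, 11 were higher in Lrig1+ in both sets, with sums of 195 and 172 CPM against 88.2 and 104. The test with the table of a library as a term called 10 of them higher. Of all genes tested, 36.5% were higher and 41.3% lower in Lrig1+ in both sets, and that test called 14.6% higher and 12.8% lower. Markers of other cells differed between the sets and in part between the groups. Their sums are given for Lrig1+ and then Lrig1-. The 10 B cell markers summed to 98.3 and 78.5 CPM in set 1 and to 391 and 775 in set 2. Of these, 7 were lower in Lrig1+ in both sets and 2 were called lower by the same test. The 10 myeloid markers summed to 89.4 and 60.8, then to 287 and 273, with 2 called higher and 3 lower. The 10 NK cell markers summed to 42.7 and 73.5 CPM in set 1 and to 89.5 and 185 in set 2. Of these, 9 were lower in Lrig1+ in both sets, 8 were called lower and 1 higher, and none stood at 0 in all libraries. The 2 CD8 chain genes summed to 14.1 and 19.5 CPM in set 1 and to 51.6 and 97.3 in set 2, and 2 were called lower. Neutrophil markers summed to 7.69 and 8.27 CPM in set 1 and to 40.05 and 95.95 in set 2. Of the 9 tested, 6 were lower in Lrig1+ in both sets and 2 were called lower. Erythroid markers stayed at 98.2 CPM or less, with none called. The part of these marker differences in the values below was not tested, and in bulk RNA fewer cells of a type cannot be told apart from less RNA per cell.

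Most of the pathway was higher in Lrig1+ T cells, in small steps, with a few members that moved far in either direction. The transcripts of *Galm*, *Hk2*, *Hif1a*, *Tpi1*, *Aldoc* and *Eno2* were at least 1.76-fold higher in Lrig1+ in each set, and *Pdk1* and *Pfkfb4* were at least 1.71-fold lower. *Ldha*, *Aldoa*, *Pgd*, *Pfkm* and *Taldo1* differed by less than 1.14-fold in each set in either direction. The ratio of Lrig1+ over Lrig1- was above 1 in both sets for 25 members (73.5%), against 36.5% of all genes tested, and below 1 in both sets for 5 (14.7%), against 41.3% of all genes. *Pfkm*, *Taldo1*, *Bpgm* and *Pfkfb3* took opposite signs in the 2 sets. The median log2 ratio of the members was 0.28 in set 1 and 0.22 in set 2, where all genes tested had medians of 0.01 and -0.06.

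These differences between groups were smaller than the differences between sets. The members' median absolute log2 difference was 0.33 and 0.31 between groups within set 1 and set 2, but 0.76 and 0.78 between sets within Lrig1+ and Lrig1-. Over all genes tested the same medians were 0.26 and 0.33 between groups and 0.75 and 0.78 between sets, so this spread was not particular to the members. In each group 23 of 34 members were higher in set 2. Of the 16123 genes tested, 7778 were higher in set 2 in Lrig1+ and 8071 in Lrig1-. In edgeR's quasi-likelihood test of the 4 libraries without a term for the table, 0 members passed an adjusted p of 0.05, as did 0% of all genes, the smallest adjusted p of any gene being 0.501. At an unadjusted p under 0.05 stood 4 members (*Hif1a*, *Galm*, *Pdk1* and *Hk2*) and 901 of all genes. DESeq2's Wald test and edgeR's exact test without that term called 260 and 196 genes higher and 50 and 17 lower, and 0 members.

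With the table of a library as a term (the table block), which compares the groups within each set, the quasi-likelihood test called 15 members higher (44.1%) and 4 lower (11.8%). The background was 14.6% of all genes called higher and 12.8% called lower, so the share called higher lay above the background and the share called lower near it. DESeq2's Wald test with the same term called 17 members higher (50.0%), against 11.5% of all genes, and 4 lower (11.8%), against 12.2%. Both Lrig1+ libraries lay above both Lrig1- libraries for 7 members (20.6%, against 14.3% of all genes), and below them for 2 (5.88%, against 11.8%). The table block leaves 1 residual degree of freedom per gene, so its adjusted p-values lean on the spread shared between genes. For 1 gene, an exact permutation test over 2 and 2 libraries that ignores the sets reaches no p below 0.333. Exchanging labels only within each set leaves fewer arrangements and so a higher limit. Without the table block, leaving out 1 library in turn changed the sign of 18 members, of which *Adpgk*, *Gpi1*, *Pfkfb2*, *Pgam1* and *Pgls* are among those called with it. In the text below, "called" refers to the quasi-likelihood test with the table block, and each adjusted p is from it unless another test is named. Counts called per step are to be read beside the same background of 14.6% higher and 12.8% lower. Each step holds too few genes for its count to be set apart from that background.

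**Figure D1:**
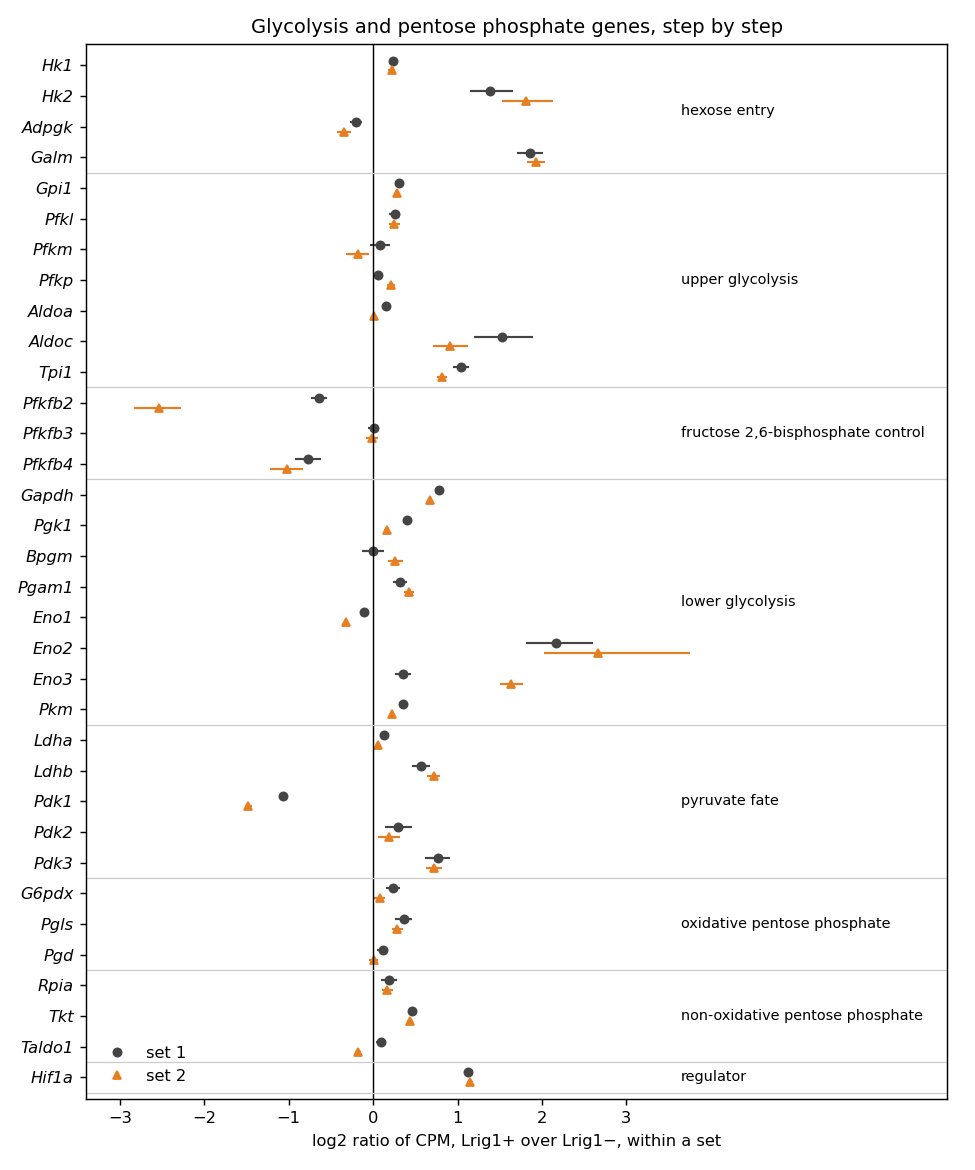
Log2 ratio, Lrig1+ over Lrig1-, for each of the 34 members, ordered by step of the pathway, with a circle for set 1, a triangle for set 2 and bars for the 95% interval from counting error alone. Points to the right of 0 are higher in Lrig1+: 25 members lay there in both sets, and *Pdk1*, *Pfkfb2* and *Pfkfb4* stood farthest to the left.

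The promoters of the members were read from RefSeq (GRCm38.p6), as the 250 bases before each annotated start. The letters ACGTG and GCGTG, the core that HIF factors are known to bind, were searched on both strands, so that a CACGTG counts once on each strand. Of 50 windows of 33 members, 39 (78.0%) held either motif, against 38.6% of 32851 windows of 27025 genes, which were not limited to genes tested. Some windows of a gene overlap, as in *Aldoa*, *Eno1* and *Pfkm*, so the same motif can count in more than 1 window. The members' windows also held more CpG pairs, with a median of 14 against 6. Windows of the same kind were found on both sides of the comparison: at least 1 motif stood in 11 of 14 members called higher, in 4 of 4 called lower and in 14 of 15 not called. The share per gene was not computed over all genes. The windows of *Hk2*, *Hif1a*, *Pdk1* and *Pfkfb4* are shown because these members moved in opposite directions, with each motif in capitals. *Pdk1* has a second window, at chr2:71874654-71874903, which holds 0 motifs and is not shown. They lie at chr6:82774455-82774704 (minus strand), chr12:73907617-73907866 (plus), chr2:71872974-71873223 (plus) and chr9:108991652-108991901 (plus), and a match describes the letters only.
Hk2: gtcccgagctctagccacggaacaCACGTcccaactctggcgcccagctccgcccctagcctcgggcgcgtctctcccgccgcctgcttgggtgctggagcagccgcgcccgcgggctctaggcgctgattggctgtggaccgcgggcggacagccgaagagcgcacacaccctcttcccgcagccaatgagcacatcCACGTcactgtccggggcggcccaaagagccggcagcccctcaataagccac
Hif1a: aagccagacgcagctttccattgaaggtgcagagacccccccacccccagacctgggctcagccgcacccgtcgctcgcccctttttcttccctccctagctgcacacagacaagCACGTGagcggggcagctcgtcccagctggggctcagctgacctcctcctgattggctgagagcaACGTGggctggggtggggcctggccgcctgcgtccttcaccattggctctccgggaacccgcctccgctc
Pdk1: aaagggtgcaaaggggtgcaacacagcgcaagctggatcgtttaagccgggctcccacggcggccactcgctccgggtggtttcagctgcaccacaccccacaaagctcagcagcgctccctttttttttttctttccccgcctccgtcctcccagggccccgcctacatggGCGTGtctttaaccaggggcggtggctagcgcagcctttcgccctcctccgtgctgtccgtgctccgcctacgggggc
Pfkfb4: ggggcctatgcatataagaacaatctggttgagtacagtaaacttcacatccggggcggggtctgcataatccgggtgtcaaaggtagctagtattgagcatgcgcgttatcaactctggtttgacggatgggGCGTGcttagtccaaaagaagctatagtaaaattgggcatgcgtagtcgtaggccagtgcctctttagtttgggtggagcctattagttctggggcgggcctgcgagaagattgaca

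Entry of hexose held some of the largest relative differences of the pathway. Of its 4 genes, *Hk2*, *Galm* and *Hk1* were higher in Lrig1+ in both sets and *Adpgk* was lower. *Hk2* (gene ID 15277, chromosome 6 of GRCm38 from 82725025 to 82774454) encodes hexokinase 2, the inducible enzyme that phosphorylates glucose on mitochondria. It measured 9.62 CPM in Lrig1+ and 3.66 in Lrig1- in set 1, and 7.94 and 2.24 in set 2. Both Lrig1+ libraries lay above both Lrig1- libraries. Its log2 fold change was 1.60 ± 0.18 (SE), with an adjusted p of 0.000849. The *Hk2* window above holds CACGT, the reverse complement of ACGTG, at 2 places.

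*Galm* (gene ID 319625, chromosome 17 of GRCm38 from 80127458 to 80185032) encodes the mutarotase that interconverts the ring forms of galactose and glucose. It measured 34.5 and 9.50 CPM in set 1 and 65.0 and 17.1 in set 2, in Lrig1+ and Lrig1- respectively. The groups did not overlap, although both were higher in set 2 than in set 1, and the ratios within the sets were 3.63-fold and 3.81-fold. The log2 fold change was 1.90 ± 0.09 (SE, adjusted p = 2.2e-05). *Hk1*, the constitutive hexokinase, measured 213 and 181 CPM in set 1 and 192 and 165 in set 2, again without overlap. Its log2 fold change of 0.23 ± 0.07 was not called (adjusted p = 0.0606), whereas DESeq2's Wald test with the table block called it (adjusted p = 0.0363). *Adpgk*, a kinase that spends ADP in place of ATP on glucose, measured 60.1 against 69.3 and 37.0 against 46.9 CPM and was called lower at a log2 fold change of -0.27 ± 0.08 (adjusted p = 0.0421), with groups that overlapped across sets.

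Per length of transcript, *Hk1* made up nearly all hexokinase in every library. On the FPKM scale *Hk2* held 3.18% and 2.99% of the summed *Hk1* and *Hk2* level in the Lrig1+ libraries and 1.45% and 1.00% in the Lrig1- libraries. The 2 hexokinases together were higher in Lrig1+ by a log2 ratio of 0.26 in each set on the CPM scale.

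**Figure D2:**
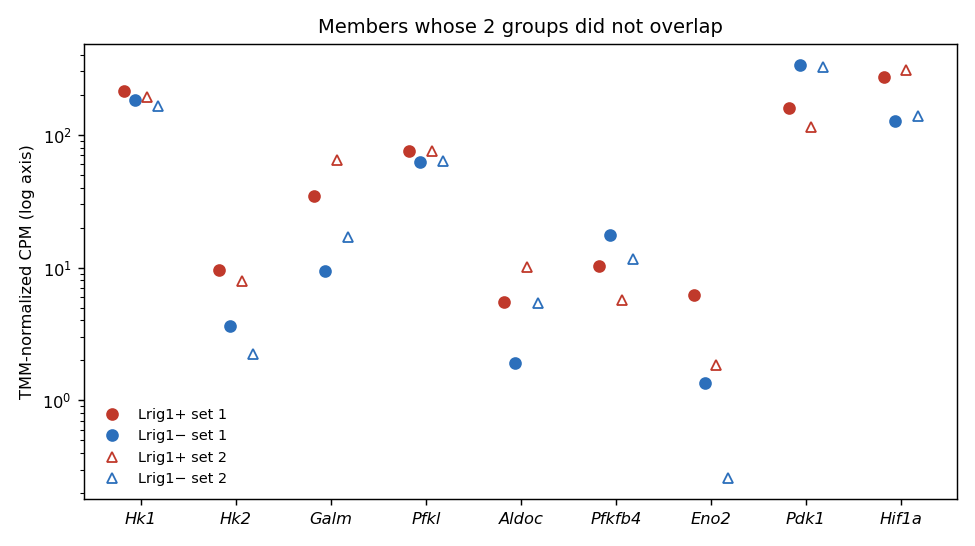
Level in TMM-normalized CPM, on a log axis, in each of the 4 libraries for the 9 members whose groups did not overlap. *Hk1*, *Hk2*, *Galm*, *Pfkl*, *Aldoc*, *Eno2* and *Hif1a* had both Lrig1+ libraries on top, and *Pfkfb4* and *Pdk1* had both below.

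In upper glycolysis, 4 of 7 genes were called higher, none lower, and 6 were higher in both sets. *Tpi1* (gene ID 21991, chromosome 6 of GRCm38 from 124810592 to 124814296) encodes triosephosphate isomerase, which interconverts the products of the aldolase reaction. It measured 55.01 CPM in Lrig1+ and 26.8 in Lrig1- in set 1, and 126 and 71.4 in set 2. The Lrig1- library of set 2 lay above the Lrig1+ library of set 1, so the groups overlapped across sets while each set gave a ratio of 2.05-fold and 1.76-fold. The log2 fold change was 0.92 ± 0.08 (adjusted p = 0.000288). *Aldoc*, the minor aldolase, measured 5.54 and 1.90 CPM in set 1 and 10.1 and 5.37 in set 2, with a log2 fold change of 1.201 ± 0.20 (adjusted p = 0.00503).

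The remaining enzymes of this stretch differed little. *Gpi1*, glucose 6-phosphate isomerase, measured 380 and 308 CPM in set 1 and 646 and 529 in set 2, a ratio of 1.24-fold and 1.22-fold, and was called higher (adjusted p = 0.0402). *Pfkl*, the liver-type phosphofructokinase of the committed step, measured 74.9 and 62.8 CPM in set 1 and 75.0 and 63.1 in set 2. It was the member whose level moved least between sets, and its log2 fold change of 0.25 ± 0.07 was called (adjusted p = 0.0373), although DESeq2's Wald test with the table block gave an adjusted p of 0.0923. *Aldoa*, the main aldolase, measured 308 and 278 CPM in set 1 and 538 and 535 in set 2 and was not called (adjusted p = 0.562). *Pfkm*, the muscle type, measured 23.0 and 21.8 CPM in set 1 and 14.0 and 15.9 in set 2 (adjusted p = 0.785).

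*Pfkp*, the platelet-type phosphofructokinase, differed more in its mRNA transcript NM_019703 than as a gene. As a gene it measured 191 and 183 CPM in set 1 and 134 and 116 in set 2, in Lrig1+ and Lrig1- respectively, and was not called (log2 fold change 0.14 ± 0.08, adjusted p = 0.240). That transcript (4033 bases, chromosome 13 from 6579874 to 6648771) measured 84.1 and 19.7 CPM in set 1 and 116 and 29.9 in set 2. That is a log2 ratio of 2.09 and 1.96, with no overlap between the groups. The transcript XR_001780791, a misc_RNA of 10431 bases, measured 102 and 163 CPM in set 1 and 1.13 and 84.2 in set 2. Since the authors' estimate divides reads between overlapping transcripts, and the share of the long transcript moved from 53.4% to 0.845% between the Lrig1+ libraries alone, these values are given as a description with no test. The FPKM of the 3 phosphofructokinases together, which weighs reads by transcript length, was higher in Lrig1+ by log2 0.42 and 0.71, while their summed CPM differed by log2 0.11 and 0.20.

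**Figure D3:**
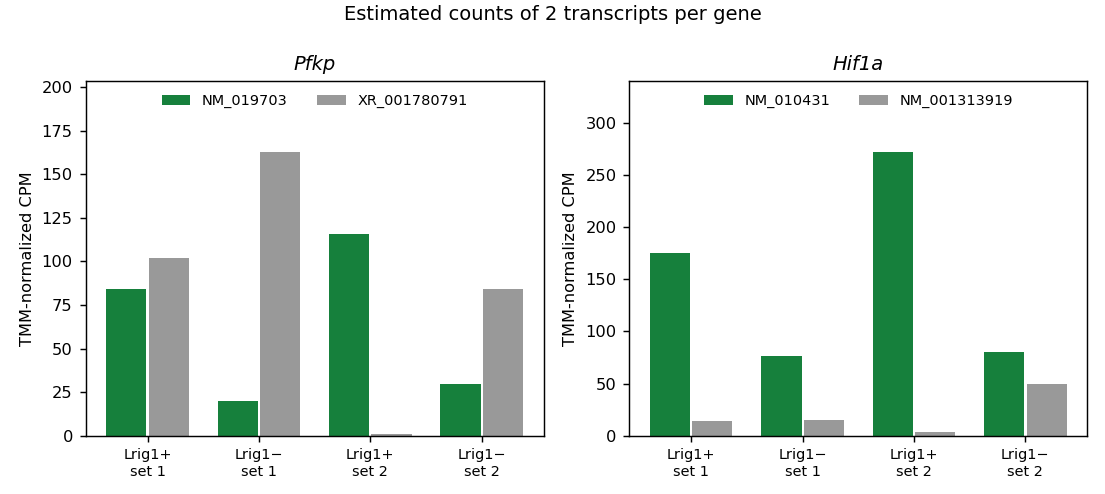
TMM-normalized CPM of 2 transcripts each of *Pfkp* and *Hif1a*, those with at least 10% of the gene's counts on average, in each of the 4 libraries. The *Pfkp* mRNA NM_019703 stood at 84.1 and 116 CPM in Lrig1+ and at 19.7 and 29.9 in Lrig1-, while the long misc_RNA stood at 1.13 in the Lrig1+ library of set 2.

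The 3 PFKFB members, whose enzymes make and remove fructose 2,6-bisphosphate, the allosteric activator of phosphofructokinase, were level or lower in Lrig1+. Of these 3 genes, 2 were called lower and none higher. Their relative *Pfkfb1*, which is not a member, went the other way. It measured 4.67 and 2.21 CPM in set 1 and 1.52 and 0.685 in set 2, in Lrig1+ and Lrig1- respectively. It was called higher (log2 fold change 1.11 ± 0.28, adjusted p = 0.0238), although DESeq2's Wald test with the table block did not call it (adjusted p = 0.091). *Pfkfb4* (gene ID 270198, chromosome 9 of GRCm38 from 108988272 to 109032236) measured 10.2 and 17.5 CPM in set 1 and 5.66 and 11.6 in set 2, in Lrig1+ and Lrig1- respectively. Both Lrig1+ libraries lay below both Lrig1- libraries, and the log2 fold change was -0.90 ± 0.13 (adjusted p = 0.00226).

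*Pfkfb2* measured 30.7 and 48.0 CPM in set 1 and 2.23 and 13.1 in set 2. It was lower in Lrig1+ within each set, at log2 ratios of -0.64 and -2.53, but its level was also lower in set 2 than in set 1, with log2 ratios of set 2 over set 1 of -3.76 in Lrig1+ and -1.87 in Lrig1-. It was called at a log2 fold change of -1.42 ± 0.37 (adjusted p = 0.0263), and the Wald test with the table block did not call it (adjusted p = 0.158). In the Lrig1+ library of set 2 its mRNA transcript NM_008825 was listed at 0 and all counts stood on the misc_RNA NR_027859, while in the Lrig1- library of that set NM_008825 held 94.5%. *Pfkfb3*, the inducible member known from activated cells, was the most abundant of the 3 per length, at 10.4 to 15.2 FPKM. It measured 74.3 and 74.0 CPM in set 1 and 57.8 and 58.2 in set 2 (adjusted p = 0.993). The 95% interval of its log2 ratio, from counting error alone, ran from -0.06 to 0.07 in set 1 and from -0.08 to 0.06 in set 2.

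In lower glycolysis, which runs from glyceraldehyde 3-phosphate to pyruvate and yields its ATP, 4 of 8 genes were called higher and none lower. *Gapdh*, the oxidizing step of the pathway and a common reference gene, measured 362 CPM in Lrig1+ and 210 in Lrig1- in set 1, and 741 and 463 in set 2. Each set gave a higher Lrig1+ value (1.72-fold and 1.60-fold), but the level was higher in set 2 in both groups, so the groups overlapped. The log2 fold change was 0.73 ± 0.09 (adjusted p = 0.00105). *Pgam1*, phosphoglycerate mutase, measured 54.96 and 44.1 CPM in set 1 and 103 and 76.7 in set 2 and was called higher (log2 fold change 0.37 ± 0.07, adjusted p = 0.00972). A near-identical copy, *Pgam1-ps2*, held counts equal to 31.8% to 38.7% of those of *Pgam1* in the 4 libraries, at like shares in both groups of a set, so its level is uncertain.

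The enolases, which make phosphoenolpyruvate, split by isoform. *Eno2*, the neuronal type, had 324 and 65 estimated counts in set 1 and 106 and 14 in set 2, or 6.23, 1.36, 1.85 and 0.259 CPM. It gave the largest ratio of the 34 members in each set, 4.59-fold and 7.12-fold, at a level near the bottom of the list, and was called higher (log2 fold change 2.44 ± 0.31, adjusted p = 0.00135). Its transcripts did not move together. NM_001355220 held 89.2% and 100% of the gene's counts in Lrig1- of set 1 and set 2, and was lower in Lrig1+ (0.212 against 1.21 CPM, then 0.209 against 0.259). NM_013509 and NM_001302642 were higher in Lrig1+ in both sets, with 0 to 4 counts in Lrig1-. *Eno3*, the muscle type, measured 45.9 and 35.9 CPM in set 1 and 33.6 and 10.8 in set 2. Its ratio rested mainly on the low Lrig1- library of set 2, and it was called higher (log2 fold change 0.97 ± 0.26, adjusted p = 0.0301). *Eno1*, the main type, went the other way, with 459 and 496 CPM in set 1 and 728 and 910 in set 2. It was not called (log2 fold change -0.22 ± 0.10, adjusted p = 0.155), but the Wald test with the table block called it lower (adjusted p = 0.00514).

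Since *Eno1* held 93.9% to 99.2% of the enolase FPKM in the 4 libraries, enolase as a whole was lower in Lrig1+ in both sets, by log2 ratios of -0.06 and -0.27 in summed CPM. Its copy *Eno1b* held counts equal to 2.84% to 3.30% of those of *Eno1*. *Pkm*, pyruvate kinase, had the most counts of all members summed over the 4 libraries and measured 718 and 564 CPM in set 1 and 1019 and 875 in set 2. The Lrig1+ library was higher in each set (1.27-fold and 1.16-fold) without being called (adjusted p = 0.0735), while the Wald test with the table block called it higher (adjusted p = 0.000222). *Pgk1*, which makes the first ATP of this stretch, measured 136 and 102 CPM in set 1 and 295 and 264 in set 2. Its adjusted p was 0.0515, and 0.0181 in the Wald test, and its copy *Pgk1-rs7* held counts equal to 6.35% to 7.45% of those of *Pgk1*. *Bpgm*, which makes 2,3-bisphosphoglycerate, measured 19.7 and 19.7 CPM in set 1 and 39.1 and 32.5 in set 2 (adjusted p = 0.3798).

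**Figure D4:**
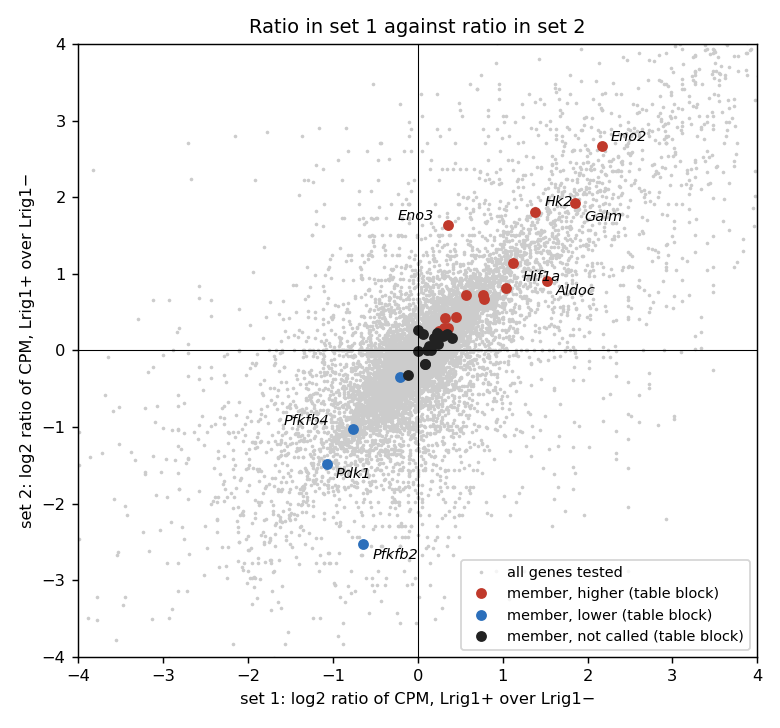
Log2 ratio of Lrig1+ over Lrig1- in set 1 (x axis) against set 2 (y axis), with all genes tested in grey and the 34 members in colour; 207 genes lie outside the axes. Members called higher sit in the upper right, with *Eno2*, *Galm* and *Hk2* farthest out, and *Pdk1*, *Pfkfb2* and *Pfkfb4* sit in the lower left.

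At the fate of pyruvate, the kinases that inactivate pyruvate dehydrogenase went in different directions. *Pdk1* (gene ID 228026, chromosome 2 of GRCm38 from 71873215 to 71903858) encodes pyruvate dehydrogenase kinase 1, which blocks entry of pyruvate into the citric acid cycle. It measured 160 CPM in Lrig1+ and 337 in Lrig1- in set 1, and 115 and 322 in set 2. Both Lrig1+ libraries lay well below both Lrig1- libraries, which differed little from each other. The log2 fold change was -1.28 ± 0.11 (adjusted p = 0.000237), and the Lrig1- level was 2.103-fold and 2.79-fold that of Lrig1+. *Pdk3*, an isoenzyme of the same function, measured 20.2 and 11.9 CPM in set 1 and 44.0 and 26.7 in set 2. It was called higher (log2 fold change 0.74 ± 0.09, adjusted p = 0.00117), although its groups overlapped across sets. *Pdk2* measured 14.1 and 11.5 CPM in set 1 and 18.6 and 16.3 in set 2 and was not called (adjusted p = 0.136).

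Per length, *Pdk1* therefore took a smaller part of the kinase transcripts in Lrig1+. On the FPKM scale it held 65.8% of the summed *Pdk1*, *Pdk2* and *Pdk3* level in Lrig1+ and 85.5% in Lrig1- in set 1, and 42.9% and 75.3% in set 2. *Pdk3* held 21.0% and 7.75% in set 1 and 41.3% and 15.9% in set 2. The 3 kinases together were lower in Lrig1+, by log2 ratios of -0.89 and -1.04 in summed CPM and of -0.67 and -0.56 in summed FPKM. The deposited counts of *Pdk1* were divided among 7 transcripts in proportions that changed from library to library, NM_172665 holding 59.3%, 7.45%, 98.8% and 59.0% of the gene in the Lrig1+ and Lrig1- libraries of set 1 and then of set 2, so that the gene sum is the value to read.

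*Ldha*, the lactate dehydrogenase subunit that favours lactate formation, was among the most abundant members and differed little, with 401 and 367 CPM in set 1 and 790 and 759 in set 2 (log2 fold change 0.09 ± 0.09, adjusted p = 0.508). *Ldhb*, the subunit that favours the reverse reaction, measured 35.1 and 23.7 CPM in set 1 and 67.3 and 40.9 in set 2. It was called higher (log2 fold change 0.64 ± 0.09, adjusted p = 0.00182), and its part of the lactate dehydrogenase FPKM was 9.88% and 9.63% in Lrig1+ against 7.51% and 6.32% in Lrig1-.

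**Figure D5:**
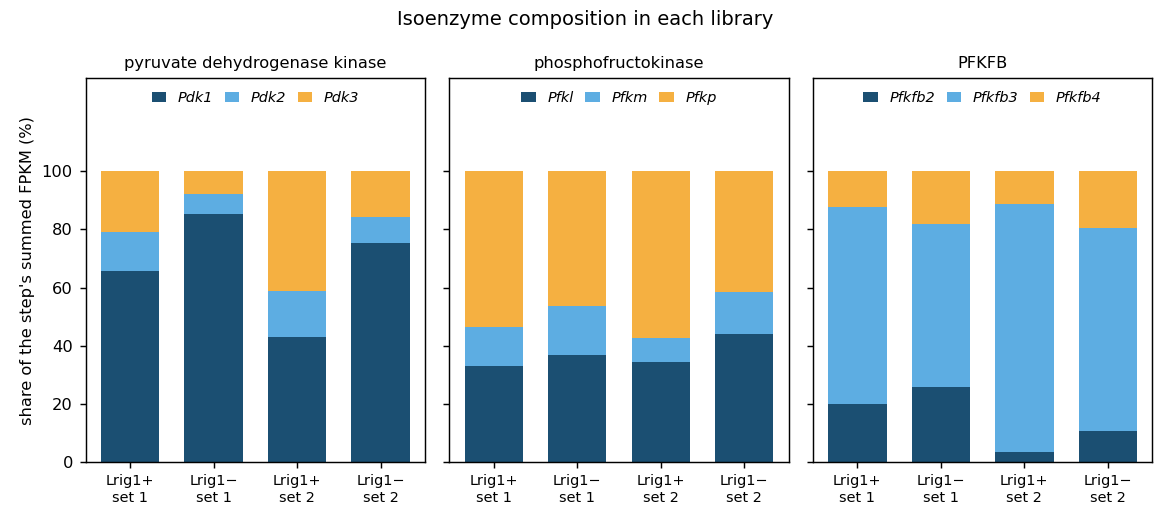
Percent of the summed FPKM held by each member among the isoenzymes of pyruvate dehydrogenase kinase, phosphofructokinase and PFKFB in the 4 libraries. *Pdk1* held a smaller share in Lrig1+ (65.8% and 42.9% of the kinase level, against 85.5% and 75.3% in Lrig1-), and *Pfkfb3* held the most of the PFKFB level in every library (56.2% to 85.5%).

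In the pentose phosphate pathway 2 of 6 genes were called higher and none lower. *Tkt*, transketolase, which links the pathway back to glycolysis, measured 230 and 168 CPM in set 1 and 359 and 265 in set 2, and was called higher (log2 fold change 0.45 ± 0.08, adjusted p = 0.00567). Its ratio was close to the same in the 2 sets (1.37-fold and 1.35-fold). *Pgls*, the lactonase of the oxidative branch, measured 35.7 and 27.8 CPM in set 1 and 73.6 and 60.3 in set 2 and was called higher (log2 fold change 0.32 ± 0.08, adjusted p = 0.0222). Both genes overlapped between groups across sets.

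The enzymes that make NADPH were not called. *G6pdx*, glucose 6-phosphate dehydrogenase and the entry to the branch, measured 46.7 and 39.6 CPM in set 1 and 73.8 and 69.9 in set 2 (adjusted p = 0.197). *Pgd*, the second NADPH-forming dehydrogenase, measured 81.5 and 75.3 CPM in set 1 and 106 and 105 in set 2 (adjusted p = 0.589). *Rpia*, ribose 5-phosphate isomerase, lay at 1.14-fold and 1.12-fold (adjusted p = 0.137), and *Taldo1*, transaldolase, at 1.06-fold and 0.88-fold (adjusted p = 0.752).

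*Hif1a* (gene ID 15251, chromosome 12 of GRCm38 from 73901324 to 73947554) encodes the oxygen-regulated subunit of hypoxia-inducible factor 1, whose known targets include *Hk2*, *Pfkfb4*, *Pgk1*, *Ldha* and *Pdk1*. It measured 275 CPM in Lrig1+ and 126 in Lrig1- in set 1, and 305 and 138 in set 2. The Lrig1+ libraries lay above both Lrig1- libraries by more than the spread between sets, at 2.18-fold and 2.21-fold. The log2 fold change was 1.14 ± 0.08 (adjusted p = 8.4e-05), and 1.14 ± 0.31 without the table block, where the adjusted p was 0.688. Its transcript NM_010431 measured 175 and 76.0 CPM in set 1 and 272 and 79.8 in set 2, and NM_001313919 measured 13.8 and 14.6, then 3.20 and 49.6. Of the targets just named, *Hk2* was called higher, *Pfkfb4* and *Pdk1* were called lower, and *Pgk1* and *Ldha* were not called. DESeq2's Wald test with the table block called *Pgk1* higher (adjusted p = 0.0181). These targets are examples only. The other members were not sorted into targets and other genes, and the activity of HIF-1 was not tested. Transcript levels do not measure HIF-1α protein, which is controlled mainly by its breakdown.

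Added over all 33 enzymes, the pathway was only slightly higher in Lrig1+ T cells. The enzymes summed to 4441 CPM in Lrig1+ and 3954 in Lrig1- in set 1, and to 6804 and 6255 in set 2, a ratio of 1.12-fold and 1.09-fold. Without *Gapdh* the ratios were 1.09-fold and 1.05-fold. The same sums differed more between the sets than between the groups, at 0.477% and 0.422% of all counts on genes in set 1 and 0.658% and 0.563% in set 2. Scaling to the total on genes in place of TMM shifted every log2 ratio by 0.01 in set 1 and by 0.10 in set 2, which turned the sign of *Pfkfb3* and of *Bpgm* in a set and left 27 members higher and 5 lower in both sets.

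Of 69 other genes of sugar metabolism and its control, 54 passed the filter on low counts, of which 7 were called higher and 9 lower. These shares lay near the background of 14.6% of all genes called higher and 12.8% called lower. The median log2 fold change of the 54 genes was -0.04, as for all genes tested. *Epas1*, which encodes HIF-2α, measured 7.79 and 27.2 CPM in set 1 and 4.16 and 22.5 in set 2, in Lrig1+ and Lrig1- respectively, the reverse order of *Hif1a* (log2 fold change -2.11 ± 0.16, adjusted p = 0.000152). *Egln3*, a prolyl hydroxylase that marks HIF subunits for breakdown, measured 9.06 and 3.63 CPM in set 1 and 17.2 and 5.06 in set 2 (log2 fold change 1.55 ± 0.16, adjusted p = 0.000492). *Txnip*, which restrains glucose uptake, measured 1034 and 1579 CPM in set 1 and 940 and 1560 in set 2 (log2 fold change -0.67 ± 0.11, adjusted p = 0.0039). *Myc*, an activator of glycolytic genes in dividing T cells, measured 125 and 86.9 CPM in set 1 and 99.9 and 78.4 in set 2 (log2 fold change 0.44 ± 0.08, adjusted p = 0.0055). In all 4 genes, which were picked by smallest p, the groups did not overlap. Of the 54 genes, both Lrig1+ libraries lay above both Lrig1- libraries for 6 and below them for 6. The shares over all genes tested were 14.3% and 11.8%.

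Beside glycolysis, *Gpd2*, the mitochondrial glycerol phosphate dehydrogenase, measured 24.5 and 40.8 CPM in set 1 and 20.3 and 40.99 in set 2 and was called lower (adjusted p = 0.000887), as was its relative *Gpd1l* (adjusted p = 0.011). *Pck2* and *G6pc3*, which act in the reverse direction of glycolysis, were called higher at log2 fold changes of 0.50 ± 0.09 and 0.44 ± 0.10 (adjusted p = 0.00728 and 0.0159), although the Wald test with the table block did not call *G6pc3* (adjusted p = 0.0703). *Pgm2l1* and *Pygm*, of glucose 1,6-bisphosphate synthesis and glycogen breakdown, were called lower at -0.55 ± 0.09 and -1.19 ± 0.26 (adjusted p = 0.00488 and 0.0134). Of 9 genes of the pyruvate dehydrogenase complex, its phosphatases and the mitochondrial pyruvate carriers, 0 were called by the quasi-likelihood test or by DESeq2's Wald test with the table block. Of these, *Pdk1* and its relatives bear on the complex. The 9 genes are too few to be set apart from the background of 14.6% of all genes called higher and 12.8% called lower.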

How the data were processed

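Splenic CD4+ T cells with and without surface Lrig1 gave RNA for libraries prepared by a strand-specific mRNA kit. The submitters' processing notes name Trimmomatic 0.38, HISAT2 2.1.0, Bowtie2 2.3.4.1 and StringTie 2.1.3b, and the build GRCm38 (mm10). The tables list 129299 transcripts. Estimated counts per transcript come from the authors' StringTie run and were deposited without normalization. The FPKM values (fragments scaled to transcript length and library size) were deposited by the authors from the same run.

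The labels list 6 samples, 3 per group. The 4 libraries used are those whose columns name the group. A further 10 columns of per-sample values were not used: 4 of TPM and 6 of a separate table, where no column name shows the Lrig1 status. Nothing in the sources says which libraries came from separate mice, so p-values measure the spread between these libraries only.

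Estimated counts, whole numbers as deposited, were summed per gene. In R 4.3.3, edgeR 4.0.16 filtered genes (filterByExpr), normalized by TMM and ran the quasi-likelihood test, with Benjamini-Hochberg adjustment over all genes tested at 0.05. Log2 ratios of genes in each set were computed with 2 as prior count. Fold ratios, 95% intervals, and log2 ratios of sums and of transcripts were computed without a prior count. The intervals cover counting error only. Alternatives were DESeq2 1.42.0 (size factors and Wald test), edgeR's exact test, other filters on low counts, FPKM with a pseudocount of 1 or 0.1 on the log2 scale in limma 3.58.1, the table block with each test, an adjusted p of 0.1, and leaving out each library. The procedure was tested on simulated counts. Tables were read in Python 3.11.15.

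The members, the other pathway genes, the marker lists and the table block were chosen with earlier results of these data known. Named were all 34 members, of the other pathway list at most 10 genes called with the table block by smallest p, and transcripts of members where at least 2 each hold 10% of the gene's counts on average over the 4 libraries. *Pfkfb1* of the other pathway list was named in addition, as a relative of the PFKFB members. Promoter windows were matched by gene symbol for 33 members. *Galm* had no entry.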

Additional observations from a re-analysis of the deposited data

How the results depend on the processing

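No paired analysis was possible because the columns carry no replicate numbers, as far as pairing by those numbers goes, and the planned replicate block could not be fitted. Libraries were paired by table instead, in the table block, which moved the members called from 0 to 15 higher and 4 lower, all genes from 0 to 2358 and 2056, and the other pathway genes from 0 to 16. With DESeq2's Wald test and the table block these were 17 and 4, 1848 and 1969, and 11, and with the table block at an adjusted p under 0.1 they were 18 and 4, 2954 and 2824, and 20. Without the block, the Wald test called 260 genes higher and 50 lower and 1 other pathway gene, and edgeR's exact test 196 and 17, with 0 members in both. The Wald fit with the block, the block at 0.1 and the sums without *Pkm* or without *Eno1*, *Pgk1* and *Pgam1* were chosen after seeing the data.

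The members' median log2 fold change of 0.23 became 0.31 and 0.32 with limma on log2(FPKM + 1) and log2(FPKM + 0.1). Over the alternatives other than leaving out a library, 306 of 374 member values kept direction and side of the threshold, 62 passed it and 6 turned sign, all near 0: *Pfkm* to 0.0021 and *Taldo1* to 0.0056 with log2(FPKM + 1), *Taldo1* to 0.0059 with log2(FPKM + 0.1), and *Pfkfb3* to 0.0454 and 0.0490 with these 2 and to 0.0037 with at least 10 counts in every library. The summed enzymes differed by 0.17 and 0.12 on the log2 scale in the 2 sets, which became 0.25 and 0.26 in FPKM and 0.12 and 0.0662 without *Gapdh*. In set 2 the ratio was 0.22 scaled to the total on genes and 0.18 without *Eno1*, *Pgk1* and *Pgam1*. *Gapdh* had been planned as the most abundant member, but *Pkm* had more counts over the 4 libraries. The cause of these shifts was not tested.

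Leaving out a library leaves 1 library in a group, assumed to vary like the other group, and lets the difference between sets enter the fold change. It called 0 members, 1 to 88 genes higher (88 and 1 with the Lrig1- library of set 1 or 2 left out, 5 and 41 with the Lrig1+ library of set 1 or 2 left out) and 0 to 2 lower, and gave members' medians from 0.0317 (without the Lrig1+ library of set 2) to 0.63 (without the Lrig1- library of set 2). In these fits 16 members kept 1 sign, among them *Hif1a* (1.05 to 1.24), *Hk2* (1.27 to 2.01), *Galm* (1.37 to 2.39), *Pdk1* (-1.49 to -1.04), *Pfkfb4* (-1.34 to -0.50), *Pfkl* (0.25 to 0.29) and *Tpi1* (0.16 to 1.76). The other 18 changed sign: *Adpgk* (-0.63 to 0.0881), *Aldoa* (-0.40 to 0.61), *Bpgm* (-0.41 to 0.62), *Eno1* (-0.62 to 0.26), *G6pdx* (-0.24 to 0.61), *Gpi1* (-0.14 to 0.74), *Ldha* (-0.50 to 0.70), *Pfkfb2* (-3.76 to 0.36), *Pfkfb3* (-0.17 to 0.23), *Pfkm* (-0.41 to 0.29), *Pfkp* (-0.17 to 0.53), *Pgam1* (-0.14 to 0.85), *Pgd* (-0.15 to 0.32), *Pgk1* (-0.44 to 1.08), *Pgls* (-0.31 to 0.98), *Pkm* (-0.0078 to 0.63), *Rpia* (-0.26 to 0.62) and *Taldo1* (-0.72 to 0.71). *Eno2*, *Aldoc* and *Hk2* had few counts behind large ratios, down to 14, 91 and 121 in a library.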

Other observations

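At the level of transcripts, 12 of the 34 members had 2 or more transcripts that each held at least 10% of the gene's counts on average over the 4 libraries. The transcripts of *Eno3* differed in their ratio: NM_001136062 (1480 bases) measured 6.25 and 1.61 CPM in set 1 and 10.9 and 1.06 in set 2, in Lrig1+ and Lrig1- respectively, a log2 ratio of 1.96 and 3.37, while the longer XM_006532161 measured 33.2 and 28.6, then 12.6 and 5.17. The transcript NM_001146100 of *Hk1* measured 124 and 112 CPM in set 1 and 174 and 144 in set 2, and XM_006513247 measured 87.5 and 67.3, then 15.7 and 18.8. NM_001081274 of *Pgd* measured 63.8 and 8.90 CPM in set 1 and 76.6 and 50.1 in set 2, at gene sums that differed by 1.08-fold and 1.01-fold. For *Pkm*, NM_011099 held 43.0% and 88.4% of the gene in set 1 and 56.6% and 49.8% in set 2, so the division of its reads changed order between the sets. These are values of single libraries, with no test.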
